A study of Mus musculus with 56 samples.

Results

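The genes described here encode the respiratory chain and ATP synthase of mitochondria. They were taken by symbol, as every gene whose name begins with Nduf (complex I), with Sdha to Sdhd (complex II), with Uqcr (complex III), with Cox4 to Cox8 (complex IV) or with Atp5 (complex V). Of 23259 gene symbols in the gene tables, 96 met this rule. They comprise 36 subunits of complex I, 4 of complex II, 8 of complex III, 20 of complex IV and 15 of complex V. Ndufa4 and Ndufa4l2 were counted with complex IV, where the Ndufa4 protein is now placed. The other 13 are assembly factors that share the prefixes (Ndufaf1 to Ndufaf7, Sdhaf1 to Sdhaf4, Atp5s and Atp5sl), and they were counted apart from the subunits.

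The study measured RNA by bulk sequencing in mice that lack Fmr1, the gene of the RNA-binding protein FMRP, and in N2a cells. Tissue samples were WT or Fmr1 KO, with 3 libraries of each genotype from liver, muscle, testis and 3 brain regions (cortex, hippocampus and cerebellum). N2a, a mouse neuroblastoma line, was treated with a small interfering RNA (siRNA) against Fmr1 (siFmr1, 3 libraries) or with a non-targeting siRNA (siNT, 2 libraries). A second N2a experiment combined siRNA and plasmid in 5 groups of 3 libraries, 56 libraries in all. The controls received siNT and the pcDNA control plasmid (siNT pcDNA), and the other groups were siFmr1 pcDNA, siMbnl1 pcDNA, siFmr1 with FLAG-tagged nuclear MBNL1 (siFmr1 nMBNL1) and siMbnl1 with FLAG-tagged cytoplasmic MBNL1 (siMbnl1 cMBNL1). MBNL1 is a splicing regulator. N2a stands for a single tumour line rather than for neurons. The labels do not say whether replicates came from separate mice or cultures, so p-values measure the spread between these samples, which may be technical. The labels give no further detail of the Fmr1 allele.

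Oxidative phosphorylation couples electron transfer along complexes I to IV to the pumping of protons across the inner mitochondrial membrane, and complex V uses the proton gradient to make ATP. Complexes I and II take electrons from NADH and succinate, complex III passes them to cytochrome c, and complex IV reduces oxygen to water. Most subunits are encoded in the nucleus, several of complex IV by paralogous genes of which one is used in most tissues and another in striated muscle or in the testis. Muscle is known for dense mitochondria with a high respiratory capacity.

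Brain libraries held 26264368 to 41384652 counts, and those of the peripheral tissues and of N2a cells with siRNA alone held 13230785 to 16268865. The co-transfection table held deposited normalized counts that summed to 31955037 to 33273189 per library, so its sequencing depth is unknown. Fmr1 was lower in every KO or siFmr1 library than in any of its controls. In CPM (counts scaled to a common library total) it ranged from 27.6 to 33.8 against 118 to 127 in cortex and from 8.07 to 10.3 against 12 to 17.6 in muscle, the closest values among the tissues. Defining markers fitted the labelled tissues, except that the neuronal genes Rbfox3 and Gad1 were not listed for N2a. Of the 96 genes, 92 were listed in the brain table, 88 in liver, 91 in muscle, 91 in testis and 91 in the first N2a table. All 96 were listed in the co-transfection table, where Cox6b2, Cox8b and Cox8c stood at 0 in every library. No gene of the mitochondrial genome was listed in any table, so the mitochondrially encoded subunits are not described.

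Transcripts of these genes were most abundant in muscle and least abundant in testis. In TPM (transcript abundance scaled by transcript length and library total), the listed genes made up 9.35% of all TPM in WT muscle (lowest 8.63%, highest 9.75%, n = 3). The WT share was 1.77% in testis and 3.01% in liver, and in brain it was 3.76% (cortex), 3.79% (hippocampus) and 3.91% (cerebellum). The ranking of muscle above brain and liver, and of testis below them, held for complexes I to V. Summed TPM of complex I was 25616 ± 1685 (SD, n = 3) in WT muscle, 7247 ± 743 in liver and 5181 ± 151 in testis. The sum for complex I was 10146 ± 333 in cortex, 10408 ± 486 in hippocampus and 10475 ± 398 in cerebellum, values that differed by less than their spread. Complex V, the ATP synthase, summed to 27768 ± 1939 TPM in muscle and 3755 TPM in testis, and complex II, succinate dehydrogenase, to 2157 and 355 TPM. Brain libraries were made with another kit than those of the peripheral tissues, so levels across these kits are set side by side with no test.

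Assembly factors did not follow that order. Their summed TPM was highest in testis (598) and lowest in liver (189), with 326 in muscle and 402 in cortex. Ndufaf3, an assembly factor of complex I, accounted for much of the testis value, with 343, 337 and 350 TPM in the WT testis libraries. Its mean was 15.3 TPM in liver, 27.6 TPM in muscle and 52.3 TPM in hippocampus. Ndufaf3 overlaps Impdh2 on the other strand (chr9:108565537-108567434, GRCm38), and reads of such a pair cannot be told apart where counting ignores strand.

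**Figure D1:**
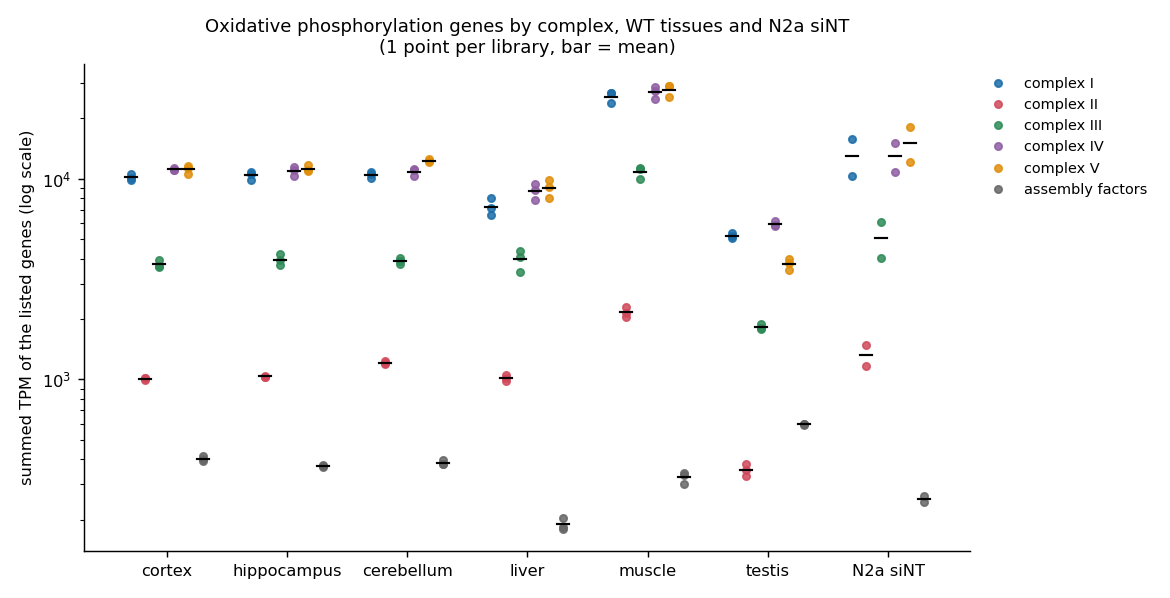
Summed TPM of the listed genes of each complex (log axis) in WT tissues and in N2a cells treated with siNT, with 1 point per library and a bar at the mean. Muscle lies highest for complexes I to V, testis lies lowest, and the assembly factors (grey) lie highest in testis.

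The paralogous subunits of complex IV, cytochrome c oxidase, separated muscle and testis from the other tissues. Cox6a2, Cox7a1 and Cox8b are the striated muscle forms of subunits VIa, VIIa and VIII. In the 3 WT muscle libraries Cox6a2 stood at 2499, 2423 and 2490 TPM and its ubiquitous paralog Cox6a1 at 109, 118 and 171 TPM. Cox8b stood at 4156, 3667 and 4031 TPM and Cox8a at 177, 155 and 184 TPM. Cox7a1 stood at 2713, 2225 and 2638 TPM and Cox7a2 at 313, 268 and 311 TPM. The muscle form thus took 94.9% of the TPM of Cox6a1 and Cox6a2, 95.8% of Cox8a and Cox8b, and 89.5% of Cox7a1 and Cox7a2. Outside muscle Cox8b was not listed in any counted tissue, and Cox7a1 averaged 5.7 to 37.7 TPM.

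In testis a different set was abundant. Cox6b2, Cox7b2 and Cox8c are the testis forms of subunits VIb, VIIb and VIII. Cox6b2 stood at 667, 611 and 667 TPM in the WT testis libraries, against 90.4, 86.4 and 64.1 TPM for Cox6b1. Cox7b2 stood at 423, 424 and 456 TPM, against 10.9, 6.47 and 7.09 TPM for Cox7b. Cox8c, the most abundant of all 91 listed genes in testis, stood at 1191, 1209 and 1051 TPM, against 79.5, 69.1 and 70.0 TPM for Cox8a. The testis form took 89.0%, 98.2% and 94.0% of the TPM of its pair. Cox8c was not listed for any other tissue. Cox7b2 also reached a mean of 75.6 TPM in N2a siNT libraries, 29.1% of the pair Cox7b and Cox7b2.

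Cox4i1 and Atp5g did not show such a switch. Cox4i1 averaged from 629 TPM in testis to 2368 TPM in muscle, and its paralog Cox4i2, known for expression in lung, averaged at most 23.98 TPM where it was listed. Atp5g1, Atp5g2 and Atp5g3 encode the same mature c-ring subunit of ATP synthase. Atp5g3 took 52.4% of their summed TPM in WT cortex, 52.5% in liver and 44.1% in muscle. In N2a siNT libraries Atp5g2 and Atp5g3 took 43.2% and 42.0%. In WT testis Atp5g1 and Atp5g3 took 35.8% and 34.8%, with overlapping ranges. Ndufa4 averaged 67.9 TPM in WT testis and 1234 to 2875 TPM elsewhere, and its paralog Ndufa4l2 reached 51.7 TPM in testis, the highest mean among these tissues.

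**Figure D2:**
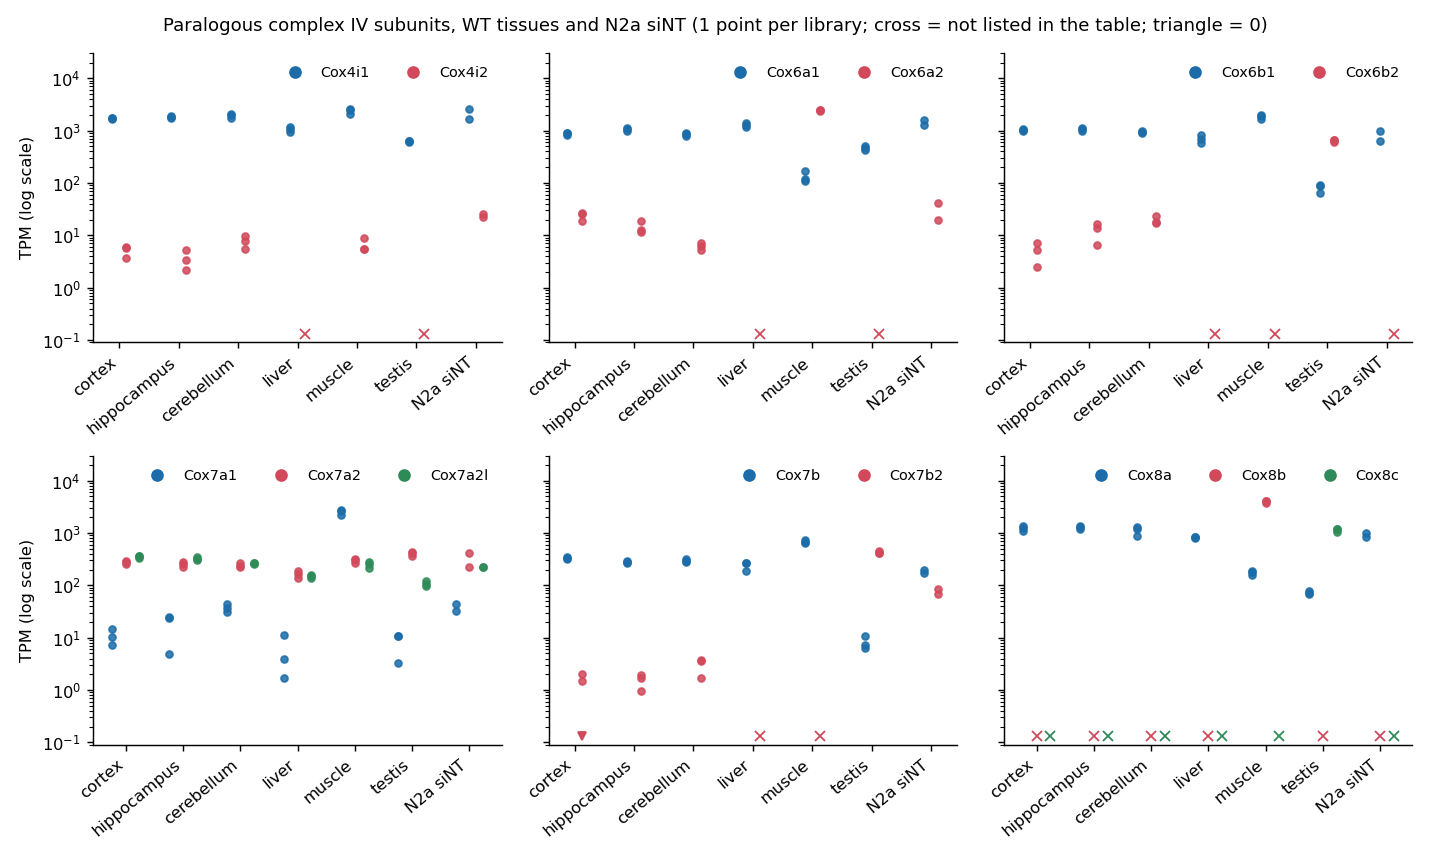
TPM of paralogous complex IV subunits (log axis) in WT tissues and N2a siNT cells, 1 point per library, with a cross where the table does not list the gene and a triangle at 0. Cox6a2, Cox7a1 and Cox8b lie above their paralogs in muscle, and Cox6b2, Cox7b2 and Cox8c lie above theirs in testis.

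Promoters of Cox8a and Cox8b are shown because this pair of paralogs exchanges places between most tissues and muscle. The sequences are from RefSeq (GRCm38.p6), 250 bases before to 50 after the gene start, on the minus strand at chr19:7217567-7217866 for Cox8a and at chr7:140900397-140900696 for Cox8b. Capitals in Cox8a mark the ETS core CCGGAAG, here on the reverse strand, and capitals in Cox8b mark the E-box CAGCTG.
Cox8a: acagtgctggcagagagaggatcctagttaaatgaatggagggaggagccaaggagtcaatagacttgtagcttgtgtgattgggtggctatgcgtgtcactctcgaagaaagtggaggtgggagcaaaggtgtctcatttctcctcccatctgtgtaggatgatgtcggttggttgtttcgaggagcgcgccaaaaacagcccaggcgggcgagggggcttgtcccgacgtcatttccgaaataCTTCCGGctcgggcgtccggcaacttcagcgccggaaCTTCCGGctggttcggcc
Cox8b: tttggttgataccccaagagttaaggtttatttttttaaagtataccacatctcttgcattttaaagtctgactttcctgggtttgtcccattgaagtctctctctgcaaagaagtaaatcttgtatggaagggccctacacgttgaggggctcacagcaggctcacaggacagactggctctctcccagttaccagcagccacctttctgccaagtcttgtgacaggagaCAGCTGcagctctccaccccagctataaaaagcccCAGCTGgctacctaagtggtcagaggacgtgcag

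The RefSeq table held 82 promoters of 77 of the 96 genes, and 19 genes, Cox6a2 and Cox8c among them, had no entry. Both strands were searched for 5 motifs. The NRF1 motif (GCGC, any base, then TGCGC) was in 26.8% of these promoters and in 4.6% of all 32851 promoters of the same length. The ETS core CCGGAAG was in 24.4% against 8.86%, and the YY1 motif AAGATGGC in 11% against 2.75%. The MEF2 motif (CTA, 4 bases of any kind, then TAG) was in 2.44% against 3.69%, and the E-box CAGCTG in 7.32% against 16.3%. No promoter of these genes held overlapping matches of different motifs. A match describes the letters of the window and is not a binding site shown by these data.

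Differences between WT tissues were tested on counts with edgeR, in 1 fit of liver, muscle and testis. In muscle against liver 81 of 88 tested genes were higher and 2 were lower at an adjusted p under 0.05, where 74.3% of all genes were called (36.9% higher). Their median log2 fold change was 1.23, against -0.02 for all genes tested. All 36 complex I subunits rose, from 0.60 to 2.46 on the log2 scale, as did the 4 of complex II, the 8 of complex III and the 15 of complex V. The 2 lower genes were Cox6a1, at -3.61 ± 0.19 (SE, adjusted p = 2.25e-09), and Cox8a, at -2.58 ± 0.12 (adjusted p = 8.78e-10). Cox7a1 had the largest rise, 8.37 ± 0.35 (adjusted p = 3.49e-10). Among the core subunits the rise was 1.80 for Ndufs1, 0.72 for Sdha, 1.43 for Uqcrc1, 0.85 for Cox4i1 and 1.22 for Atp5b.

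Testis was lower than liver for 74 of 88 genes and higher for 9, where 84.1% of all genes were called (42.8% lower), with a median of -1.48. It was lower than muscle for 81 and higher for 5, where 83.6% were called (42.1% lower), with a median of -2.75. After a trend of fold change on transcript length was removed, the medians were -0.81 and -2.03. Against liver the lowest genes were Cox7b (-5.42 ± 0.22, adjusted p = 1.52e-10) and Ndufa4 (-4.73 ± 0.17, adjusted p = 5.62e-11). The highest were Ndufaf3 (3.94 ± 0.16, adjusted p = 1.78e-10), Ndufa4l2 (3.32 ± 0.27, adjusted p = 9.9e-08), Atp5s (2.44) and the assembly factor Ndufaf2 (1.67). Testis-specific forms not listed for liver or muscle are outside this test.

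Among the 3 WT brain regions the differences were smaller. Hippocampus against cortex gave 15 higher and 14 lower of 91 genes, where 43.4% of all genes were called. This count fell to 14 without cortex WT 2 and to 15 without hippocampus WT 3. Ttr, from the hepatocyte markers, spread widely in WT hippocampus, from 18.8 to 10299 TPM (median 7765). In WT cortex it ranged from 25.1 to 160 TPM. Its relation to the differences between regions was not tested. Cerebellum against cortex gave 17 higher and 26 lower, where 67.9% were called, and cerebellum against hippocampus 13 higher and 25 lower, where 68.0% were called. Of the complex II genes, Sdha (0.24), Sdhc (0.34) and Sdhd (0.27) rose in cerebellum against cortex and Sdhb fell (-0.23). Cox6a2 was the gene with the lowest fold change in each of these contrasts, at -0.72 ± 0.23 (adjusted p = 0.0259), -2.05 ± 0.25 (adjusted p = 1.99e-05) and -1.33 ± 0.25 (adjusted p = 0.00067). Cox6b2 stood opposite in both contrasts against cortex, at 1.39 ± 0.38 (adjusted p = 0.0128) in hippocampus and 1.87 ± 0.37 (adjusted p = 0.000886) in cerebellum. Both are low in WT brain, with means of at most 23.8 TPM for Cox6a2 and 19.7 TPM for Cox6b2.

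Between KO and WT, edgeR called none of these genes in any single brain region or in liver when each was fitted alone, while DESeq2 called a few in cortex and liver. Cortex had 0 of 90 called by edgeR, where 0.0203% of all genes were called. At an unadjusted p under 0.05, 7 were higher and 2 lower, against 10.3% and 10.7% of all genes. The groups did not overlap for 10 higher and 6 lower, against 13.3% and 12.8%. An edgeR fit of all 18 brain libraries gave 1 call in cortex. DESeq2 called Atp5k and Ndufa4, where it called 5.80% of all genes. Atp5k, subunit e of ATP synthase, stood at 37.7, 41.2 and 40.2 CPM in KO and 32.3, 30.2 and 30.8 CPM in WT cortex. The groups did not overlap, and the log2 difference was 0.35 ± 0.06 (edgeR adjusted p = 0.0668, DESeq2 0.00313). Ndufa4 stood at 160, 155 and 165 CPM in KO and at 140, 139 and 141 CPM in WT, again without overlap (0.19, edgeR adjusted p = 0.096). Ndufa3, a complex I subunit, was next at 0.25 (adjusted p = 0.126). Leaving out cortex WT 3 gave 3 calls.

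Hippocampus had 0 of 91 called by edgeR (0.209% of all genes, 0.0135% higher) and none by DESeq2. At an unadjusted p under 0.05, 9 were higher and 2 lower (6.36% and 6.12% of all genes), and the groups did not overlap for 8 higher and 3 lower (9.48% and 9.35%). Ndufs4, a complex I subunit whose loss causes mitochondrial disease in mice, stood at 50.4, 51.4 and 49.0 CPM in KO and 44.3, 41.5 and 46.0 CPM in WT (0.19, adjusted p = 0.224). Ndufv2 and Ndufb10 followed at 0.19 and -0.18. Summed TPM of 4 oligodendrocyte markers was 4457 to 4654 in hippocampus KO and 5506 to 5801 in WT. Sums for neurons, astrocytes, microglia and endothelium overlapped. Their part in the hippocampus values was not tested. Cerebellum had 0 of 92 called by edgeR (0.226%, 0.0273% higher) and none by DESeq2. At an unadjusted p under 0.05, 5 were higher and 1 lower (3.77% and 4.95% of all genes, 8.72% in both directions), and the groups did not overlap for 5 higher and 1 lower (7.48% and 7.22%). Its lowest gene was Cox6a2, at 0.49, 0.46 and 0.38 CPM in KO against 0.95, 1.05 and 0.76 CPM in WT (-1.04 ± 0.27, adjusted p = 0.237). Uqcrh and Cox6b1 stood at 0.19 and 0.15.

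With the 3 regions in 1 additive fit, Ndufs4 was the only gene called, at 0.13 ± 0.03 (edgeR adjusted p = 0.0362), where 3.48% of all genes were called. In cortex it stood at 63.0, 57.2 and 60.4 CPM in KO and 55.9, 51.8 and 58.2 CPM in WT, which overlap. In cerebellum it stood at 58.8, 56.99 and 57.5 CPM against 54.1, 54.9 and 55.3 CPM. The call for Ndufs4 was lost when region libraries of the same number were averaged, and in 10 of the 18 fits that left out 1 library. Region libraries of the same number may come from 1 animal, which the labels do not say. The pooled fit and the interaction tests treated them as independent, so their p-values make no allowance for it. Genotype effects did not differ between regions for any of the genes by edgeR (0 of 92 in each of 3 interaction tests, where 0%, 0% and 0.00645% of all genes were called). At an unadjusted p under 0.05 these tests gave 2, 6 and 4 genes, against 10.1%, 15.2% and 5.31% of all genes.

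Liver had 0 of 87 called, where 0.411% of all genes were called, and 2 higher and 2 lower at an unadjusted p under 0.05 (5.37% and 6.07% of all genes). The groups did not overlap for 3 higher and 0 lower (9.18% and 8.15%). Cox7a2, a complex IV subunit, stood at 87.0, 81.2 and 103 CPM in KO and 70.8, 48.2 and 57.9 CPM in WT. The groups did not overlap, and the difference of 0.62 ± 0.17 had an edgeR adjusted p of 0.185. DESeq2 called this gene alone, and edgeR gave 1 call without liver WT 1 or without liver WT 3. Atp5k spread widely within liver, at 11.5, 8.29 and 9.46 CPM in KO and 41.1, 26.5 and 9.22 CPM in WT (-1.39, adjusted p = 0.258). Ndufaf4 stood at 0.46.

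In muscle, most of the genes stood lower in KO, and 5 passed the test. The called genes were Uqcrq of complex III, Ndufb5, Ndufa12 and the iron-sulphur subunit Ndufs8 of complex I, and the c-ring gene Atp5g2. Uqcrq stood at 297, 277 and 241 CPM in KO and 441, 346 and 418 CPM in WT, a log2 difference of -0.56 ± 0.13 (adjusted p = 0.0434). Ndufb5 stood at 277, 248 and 229 CPM against 396, 333 and 367 CPM (-0.54 ± 0.11, adjusted p = 0.0371). The groups did not overlap for either gene, and KO 3 was the lowest library and WT 1 the highest for both. Ndufa12 fell by 0.49 (adjusted p = 0.0434), Ndufs8 by 0.45 (adjusted p = 0.0444) and Atp5g2 by 0.41 (adjusted p = 0.0458), each without overlap.

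Over all 91 genes tested in muscle, 5 were called lower and 0 higher, where 4.04% of all genes were called (1.03% lower). At an unadjusted p under 0.05, 65 were lower and 0 higher, against 11.9% of all genes lower. The groups did not overlap with KO lower for 62, against 15.1% of all genes. The sign was negative for 86 and positive for 5, namely Cox8a (0.01), Sdha (0.10), Cox6a1 (0.30), Ndufa4l2 (0.34) and Cox4i2 (0.48), of which none was called. The median log2 fold change was -0.34, against 0.00 for all genes, -0.16 for all genes under 1 kb, and -0.20 for these genes after the trend on transcript length was removed. By class the median was -0.39 for complex I, -0.25 for complex II, -0.35 for complex III, -0.26 for complex IV, -0.35 for complex V and -0.22 for assembly factors.

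The abundant muscle forms of complex IV were among the genes that did not pass. Cox6a2 stood at 757, 653 and 604 CPM in KO and 772, 716 and 740 CPM in WT (-0.15 ± 0.12, adjusted p = 0.448). Cox8b stood at 341, 308 and 272 CPM against 395, 334 and 373 CPM (-0.26 ± 0.12, adjusted p = 0.203), and Cox7a1 at 191, 204 and 150 CPM against 264, 207 and 250 CPM (-0.40 ± 0.14, adjusted p = 0.12). Only Cox7a1 separated the groups. On the TPM scale the summed level of complex I was 21907 ± 1093 in KO and 25616 ± 1685 in WT, and that of complex II was 2215 and 2157.

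The number of muscle calls changed with the libraries and the tool. DESeq2 called 42 of the genes lower, where it called 3.38% of all genes lower. With edgeR, leaving out 1 library gave 0 calls, except that 11 were called without muscle WT 2. The shares of all genes called in those edgeR fits are not given here. The median deviation of the genes from their mean was 0.26, 0.03 and 0.22 in WT 1 to 3 and -0.09, -0.13 and -0.27 in KO 1 to 3. Other mitochondrial gene lists held 2 calls but many lower values at an unadjusted p under 0.05. Of 13 citric acid cycle genes none was called, 10 were lower unadjusted, and the median was -0.34. Of 77 mitochondrial ribosomal protein genes 2 were called lower and 40 were lower unadjusted (median -0.23). Of 34 other genes, mostly assembly factors with other symbols, none was called and 13 were lower unadjusted (median -0.23). For 4 genes of cytochrome c and of phosphate and ADP/ATP carriers, none was called and 3 were lower unadjusted (median -0.40). Glycolysis, in the cytosol, had none of 14 genes called, with 3 higher and 6 lower unadjusted (median -0.27).

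Markers of other cell types differed between the muscle groups as well. Summed TPM of 4 fibroblast markers was 895 to 1230 in KO and 360 to 538 in WT, and all 4 were called higher. Summed TPM of the fat cell markers was 224 to 568 against 105 to 162, with 4 of 5 listed, Ucp1 not listed and none called. Macrophage markers summed to 26.6 to 33.2 against 13.3 to 16.5 TPM (4 of 5 listed, 1 called), and 3 endothelial markers to 135 to 160 against 86.4 to 129 TPM (none called). Markers of fast fibres overlapped, at 120665 to 138641 TPM in KO and 117915 to 134421 TPM in WT, with 1 of 7 called lower and a median log2 fold change of -0.21. Those of slow fibres overlapped too, with none of 6 called and a median of -0.29. Their part in the lower values was not tested, and in bulk samples fewer cells of a type and less RNA per cell cannot be told apart.

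In testis 10 genes passed the test, in both directions. Complex V held most of the lower ones. Atp5k (chr5:108433244-108434448, GRCm38) stood at 3.32, 2.36 and 3.32 CPM in KO and 10.3, 10.8 and 6.12 CPM in WT, the largest difference among these genes in testis (-1.60 ± 0.20, adjusted p = 3.17e-07). Cox8c, the testis form of subunit VIII, stood at 150, 103 and 111 CPM in KO and 176, 179 and 163 CPM in WT (-0.51 ± 0.08, adjusted p = 7.7e-05). Neither gene overlapped between the groups, and both stayed called in all 6 fits that left out 1 library. DESeq2 gave no adjusted p for Atp5k and 0.0616 for Cox8c.

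Of 90 genes tested in testis, 4 were called higher and 6 lower, where 4.27% of all genes were called (2.28% lower). At an unadjusted p under 0.05, 21 were higher and 11 lower, against 8.81% and 9.53% of all genes. The higher genes were Ndufb4 of complex I (48.6, 55.7 and 54.9 CPM in KO against 42.9, 40.4 and 43.2 CPM in WT, 0.34 ± 0.08, adjusted p = 0.00754), Cox7c of complex IV (88.9, 113 and 105 against 86.3, 74.8 and 86.8 CPM, 0.31 ± 0.07, adjusted p = 0.0105), the stalk subunit Atp5h (0.27, adjusted p = 0.0269) and the complex I subunit Ndufv2 (0.21, adjusted p = 0.0483). The groups overlapped for Atp5h and not for the other 3. The remaining lower genes were the c-ring gene Atp5g3 (-0.48, adjusted p = 0.0105), Cox6b1 (-0.45, adjusted p = 0.0443), and the F1 subunits Atp5e (-0.30, adjusted p = 0.0442) and Atp5d (-0.26, adjusted p = 0.0455). All 4 overlapped between the groups.

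The other testis forms were not called. Cox6b2 stood at 134, 131 and 130 CPM in KO and 124, 115 and 128 CPM in WT (0.10, adjusted p = 0.415), and Cox7b2 at 91.7, 94.2 and 98.2 CPM against 79.3, 79.7 and 89.5 CPM (0.19, adjusted p = 0.0954). Both separated the groups with KO higher, opposite to Cox8c. Ndufaf3 stood at -0.02 (adjusted p = 0.916). The median of the 90 genes was 0.04.

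Libraries and tool also moved the testis count. DESeq2 called 4 genes, all higher (Atp5h, Cox7c, Ndufb4 and Ndufv2). The edgeR count was 4 without WT 1, 3 without WT 2, 20 without KO 1, 2 without KO 2 and 2 without KO 3. The shares of all genes called in these DESeq2 and edgeR fits are not given here. Among 12 regulators, Esrra (-0.46, adjusted p = 0.0322) and Tfb1m (0.29, adjusted p = 0.019) were called in testis by edgeR. From a list of other genes, mostly assembly factors, Cox20 (0.56, adjusted p = 0.0239) and Atpif1 (0.25, adjusted p = 0.0146) were called, with 34 tested. Mitochondrial ribosomal protein genes had 2 of 77 called higher and 0 lower. Of 5 Leydig cell markers 4 were called lower, with summed TPM of 3025 to 3354 in KO and 3400 to 4408 in WT. Germ cell markers summed to 62414 to 66091 against 64612 to 68622 TPM, with 1 of 8 called higher and 1 lower. Their part in the values above was not tested.

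**Figure D3:**
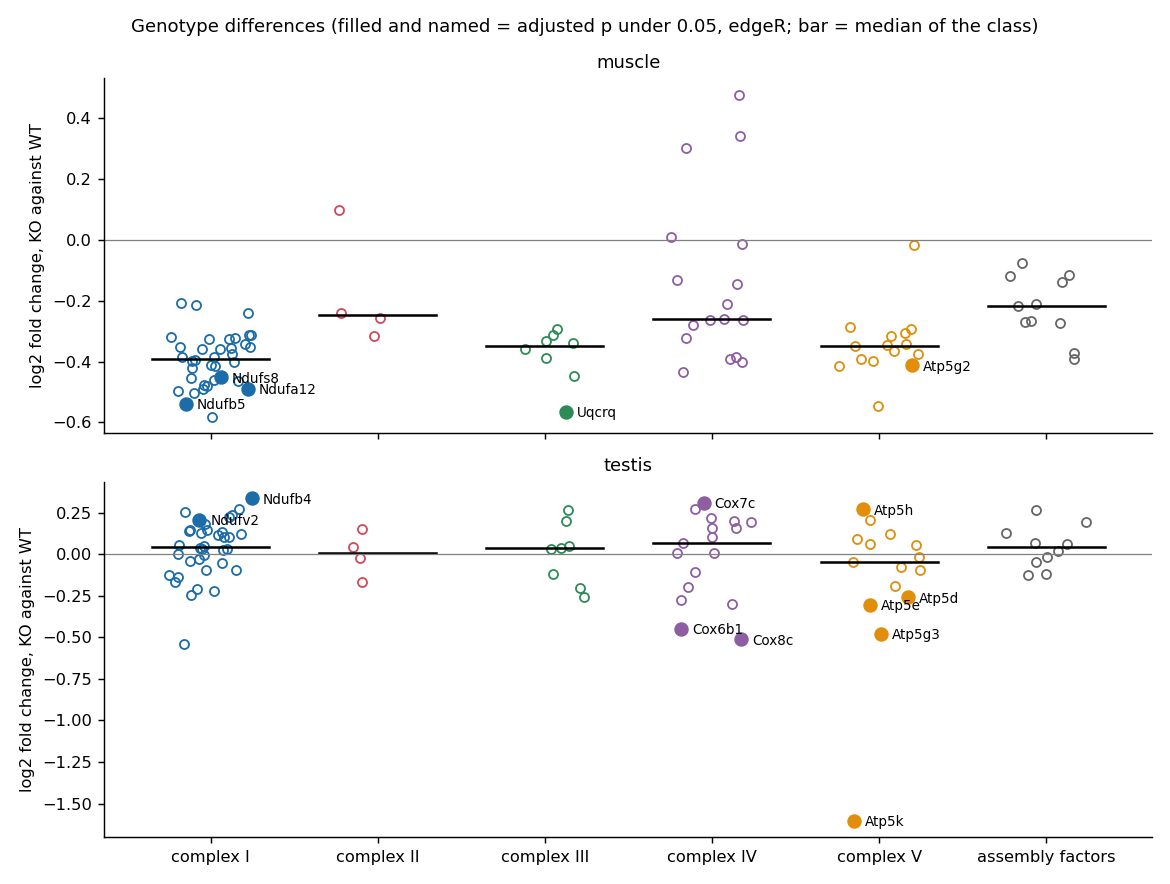
Log2 fold change of KO against WT (vertical axis) for each tested gene, by complex, in muscle and testis, with a bar at the class median and called genes filled and named. Muscle has 5 called genes, all lower, and testis has 4 higher and 6 lower.

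In the first N2a experiment no gene of any kind was called by edgeR for siFmr1 against siNT (0% of all genes, 47 at an unadjusted p under 0.05), and none of the 91 was below an unadjusted p of 0.05. DESeq2 called 0 genes. The 2 siNT libraries stood at opposite ends, with a median deviation of -0.56 in siNT 1 and 0.72 in siNT 2, and siFmr1 1 to 3 at -0.40, -0.06 and 0.35. Atp5b, the catalytic subunit of ATP synthase, shows this spread, at 2235 and 5075 CPM in siNT and 2505, 3535 and 4587 CPM in siFmr1. Cox4i1 stood at 466 and 1295 CPM in siNT and 517, 629 and 902 CPM in siFmr1. The median log2 difference was -0.20, and 0.55 without siNT 2. The genes of lowest p were Cox4i2 (-0.73), Cox7a2l (-0.55) and Ndufa1 (-0.45), all with an adjusted p of 1.

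In the co-transfection experiment one control library stood apart for these genes. They made up 1.19% of all normalized counts in siNT pcDNA 2 and 1.71% to 2.18% in the other 14 libraries. Its median deviation on the log2(value + 1) scale was -1.03, against 0.03 in siNT pcDNA 1, -0.20 in siNT pcDNA 3 and -0.08 to 0.30 in the rest. All genes under 1 kb deviated by a median of -0.62 in it. Comparisons with siNT pcDNA all share the same controls, and their values without this library are given beside them.

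**Figure D4:**
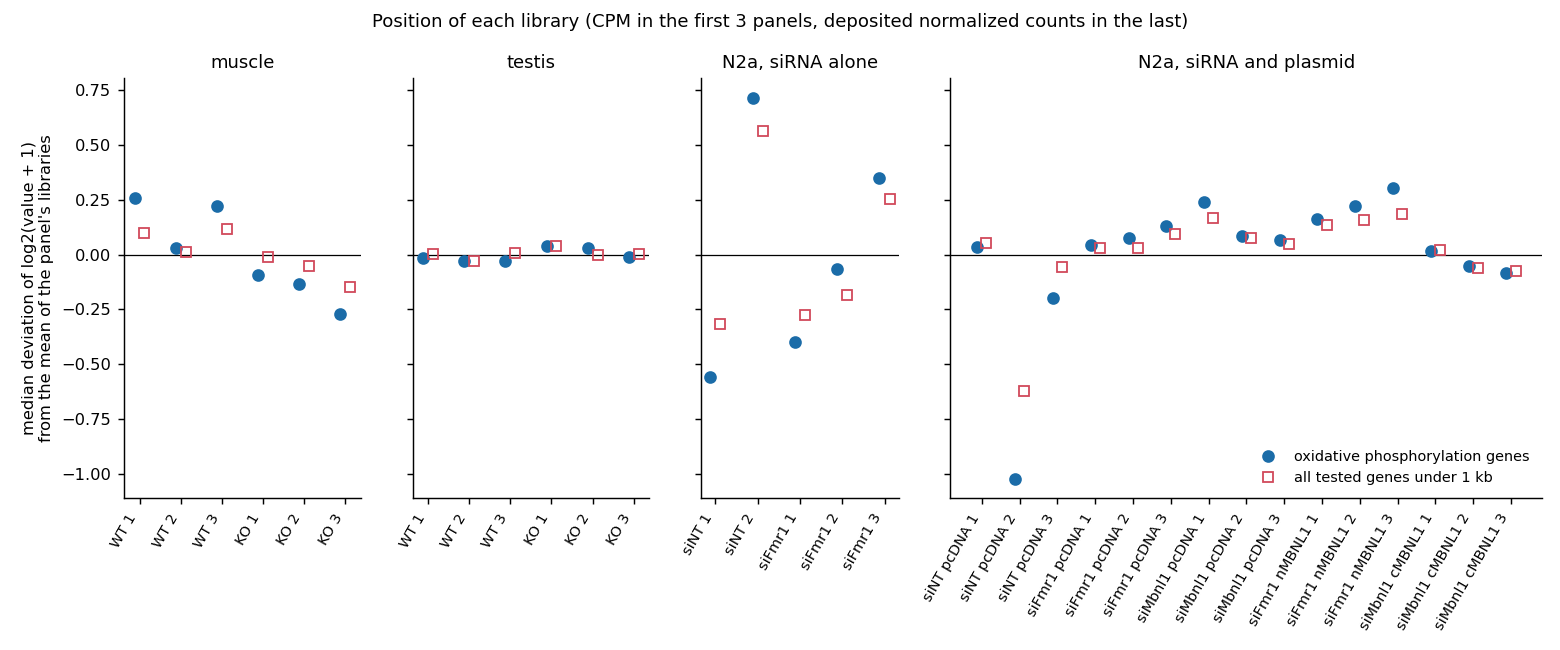
Median deviation of the genes (filled circles) and of all tested genes under 1 kb (open squares) from the mean of the libraries of each panel, on the log2(value + 1) scale, 1 pair per library. The library siNT pcDNA 2 lies at -1.03, muscle WT lies above muscle KO, and the 2 siNT libraries of the first N2a experiment lie at -0.56 and 0.72.

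Against siNT pcDNA, limma called 45 of 93 genes higher and 1 lower in siFmr1 pcDNA, where 37.0% of all genes were called (19.5% higher, 17.5% lower). It called 45 higher and 2 lower in siMbnl1 pcDNA, where 32.8% were called (17.0% higher). It called 61 higher and 0 lower in siFmr1 nMBNL1, where 41.1% were called (21.2% higher), and 33 higher and 1 lower in siMbnl1 cMBNL1, where 33.7% were called (17.7% higher). The medians were 0.46, 0.46, 0.61 and 0.29, and removing the trend on transcript length left 0.23 in the siFmr1 pcDNA comparison. By complex, 21 of 36 complex I subunits rose in siFmr1 pcDNA, 5 of 8 in complex III, 4 of 17 in complex IV and 7 of 15 in complex V.

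Without siNT pcDNA 2 the medians fell to 0.16, 0.17, 0.31 and 0.02. In siFmr1 pcDNA 41 were then called higher and 6 lower (20.8% and 19.4% of all genes in that fit). In siMbnl1 pcDNA there were 39 and 8 (18.2% and 17.0%), in siFmr1 nMBNL1 52 and 4 (21.4% and 20.7%), and in siMbnl1 cMBNL1 29 and 21 (20.7% and 19.1%). By complex, siFmr1 pcDNA then had 18 higher and 1 lower in complex I, 5 and 2 in complex III, 4 and 2 in complex IV. Complex V had 8 and 0. The medians of these 4 complexes were 0.20, 0.22, -0.04 and 0.16. In siMbnl1 cMBNL1 the 17 complex IV genes then gave 4 higher and 10 lower, with a median of -0.24. Leaving out siNT pcDNA 1 instead raised the counts of calls to 77, 72, 81 and 59. In that fit siNT pcDNA 2 weighed more among the controls, and its share of all genes called is not given here. The count in siMbnl1 cMBNL1 was lowest, 22, without siMbnl1 cMBNL1 1.

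Cox6a2 rose in both siMbnl1 groups. Its normalized counts were 279, 103 and 158 in siNT pcDNA, 231, 237 and 277 in siFmr1 pcDNA, and 851, 902 and 767 in siMbnl1 pcDNA. They were 240, 277 and 283 in siFmr1 nMBNL1 and 676, 728 and 549 in siMbnl1 cMBNL1, so every siMbnl1 library lay above every other library. The log2 difference from siNT pcDNA was 2.34 ± 0.24 (limma adjusted p = 4.4e-06) in siMbnl1 pcDNA, and Cox6a2 was 3.90-fold higher in siMbnl1 cMBNL1 (adjusted p = 1.53e-05). Without siNT pcDNA 2 the log2 differences were 1.99 and 1.62. Between the knockdowns, siFmr1 pcDNA was lower than siMbnl1 pcDNA by a log2 value of -1.76 ± 0.24 (adjusted p = 3.79e-05). Cox6a2 (chr7:128205435-128206387, GRCm38) overlaps Itgad on the other strand.

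Some assembly factors of complex I differed between the 2 knockdowns, in both directions. Ndufaf2 stood at 743, 536 and 723 normalized counts in siNT pcDNA, 1063, 972 and 1098 in siFmr1 pcDNA, and 1734, 1698 and 1361 in siMbnl1 pcDNA. It rose by 1.27 ± 0.12 in siMbnl1 pcDNA and by 1.05 ± 0.12 in siMbnl1 cMBNL1, or by 1.11 and 0.90 without siNT pcDNA 2. The value for siFmr1 pcDNA against siMbnl1 pcDNA was -0.61 ± 0.12 (adjusted p = 0.000869). Ndufaf3 went the other way, at 1076, 1048 and 1087 in siFmr1 pcDNA, 733, 667 and 645 in siMbnl1 pcDNA, and 967, 522 and 745 in siNT pcDNA. The 2 knockdowns did not overlap (0.65 ± 0.15, adjusted p = 0.00234). Ndufaf7, a methyltransferase needed for complex I assembly, stood at 921, 866 and 904 in siFmr1 pcDNA and 627, 633 and 639 in siMbnl1 pcDNA (0.50 ± 0.10, adjusted p = 0.000864).

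In all, 7 genes were higher and 5 lower in siFmr1 pcDNA against siMbnl1 pcDNA, where 35.3% of all genes were called (18.2% higher, 17.0% lower), and 16 and 18 (22.2% and 21.8% of all genes) without siNT pcDNA 2, which enters only through the shared spread. The other lower genes were Ndufaf6 (-0.47, adjusted p = 0.00233), Sdhaf1 (-0.45, adjusted p = 0.0416) and Ndufaf5 (-0.33, adjusted p = 0.02). The other higher genes included the core subunits Uqcrfs1 (0.30, adjusted p = 0.0148), Ndufs1 (0.23, adjusted p = 0.00894), Ndufv1 (0.22, adjusted p = 0.0139) and Atp5a1 (0.18, adjusted p = 0.046). Of 13 glycolysis genes, 9 were higher in the same comparison and none lower. Citric acid cycle genes gave 4 higher and 0 lower of 13, and mitochondrial ribosomal protein genes 1 and 9 of 77. Other genes, mostly assembly factors, gave 3 and 6 of 35, regulators 1 and 4 of 12, and carriers 1 and 1 of 6.

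Atp5k and Ndufs6 were among the subunits called higher in all 4 groups against siNT pcDNA. Atp5k stood at 633, 579 and 1758 normalized counts in siNT pcDNA and at 2682, 3026 and 2927 in siFmr1 pcDNA, a rise of 1.73 ± 0.27 (adjusted p = 0.000127). The rise of Atp5k was 1.94 in siMbnl1 pcDNA, 1.84 in siFmr1 nMBNL1 and 1.72 in siMbnl1 cMBNL1, and 1.45, 1.65, 1.55 and 1.43 in the 4 groups without siNT pcDNA 2. Ndufs6, an accessory subunit of complex I, stood at 3289, 1423 and 3006 in siNT pcDNA and at 4896, 4957 and 5581 in siFmr1 pcDNA (1.09 ± 0.20, adjusted p = 0.000539). It rose by 1.22 in siMbnl1 pcDNA and by 1.11 in siMbnl1 cMBNL1, and was called higher in siFmr1 nMBNL1 as well. Without siNT pcDNA 2 the rise of Ndufs6 was 0.71 in siFmr1 pcDNA, 0.84 in siMbnl1 pcDNA and 0.73 in siMbnl1 cMBNL1. Ndufs6 overlaps Mrpl36 on the other strand.

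For other subunits the low control library set the range of the controls. Cox4i1 stood at 26711, 11124 and 21611 normalized counts in siNT pcDNA and between 20052 and 24291 in the other 4 groups, so all of these lay between siNT pcDNA 1 and siNT pcDNA 2. Without siNT pcDNA 2, Cox4i1 was lower in siMbnl1 cMBNL1 by a log2 value of -0.21 (adjusted p = 0.0355). Ndufaf1, an assembly factor, was the gene called lower in siFmr1 pcDNA (-0.44 ± 0.13, adjusted p = 0.0139) and stood at 784, 578 and 655 in siNT pcDNA and 493, 470 and 517 in siFmr1 pcDNA. It fell by 0.44 in siMbnl1 pcDNA and by 0.73 in siMbnl1 cMBNL1, and without siNT pcDNA 2 the 3 values were -0.54, -0.55 and -0.84. Sdha fell by 0.20 in siMbnl1 pcDNA (adjusted p = 0.0431), a call kept in 3 of 15 fits that left out 1 library, and stood at -0.11 (adjusted p = 0.122) without siNT pcDNA 2.

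**Figure D5:**
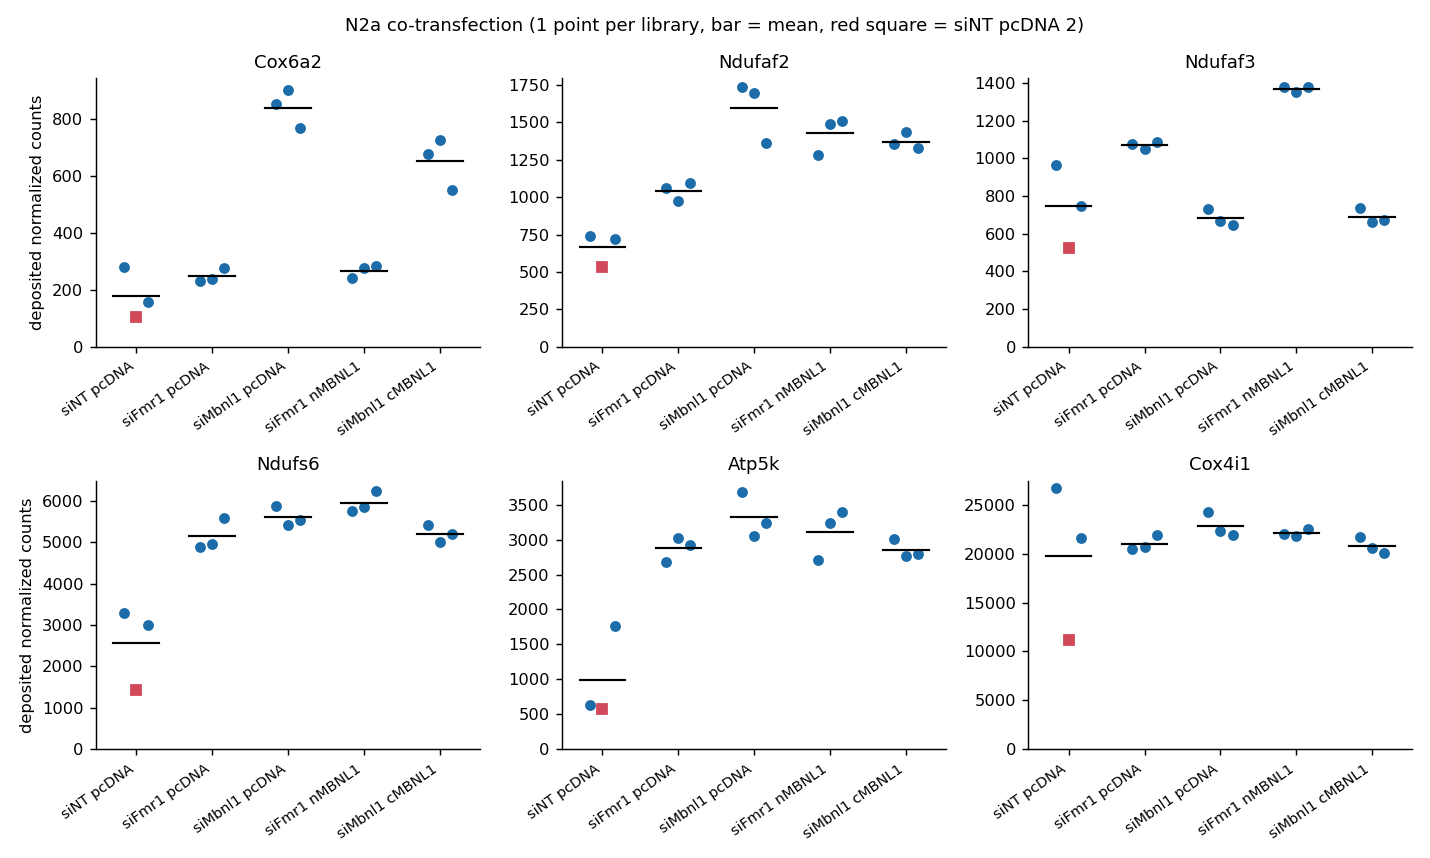
Deposited normalized counts of 6 genes in the co-transfection experiment, 1 point per library with a bar at the group mean and the library siNT pcDNA 2 as a red square. Cox6a2 is high in both siMbnl1 groups, Ndufaf3 is high in both siFmr1 groups, and the siNT pcDNA library in red is the lowest of its group in all 6 panels.

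In the limma fit of all 5 groups, none of the 93 genes was called between an MBNL1 plasmid and pcDNA with the same siRNA, and other fits did make calls. In siFmr1 nMBNL1 against siFmr1 pcDNA limma called 0 of 93, where 1.76% of all genes were called, with 10 higher and 0 lower at an unadjusted p under 0.05. Ndufaf2 came closest (0.45 ± 0.12, adjusted p = 0.0682), followed by Ndufa10 (0.24) and Ndufa9 (0.25). In siMbnl1 cMBNL1 against siMbnl1 pcDNA 0 were called, where 2.24% were called, with 1 higher and 5 lower unadjusted (lowest p for Ndufa4l2, -1.12, Ndufb5, -0.30, and Ndufaf5, -0.24). The share of all genes at an unadjusted p under 0.05 is not given here for either comparison. Medians of the 93 genes were 0.14 in the first and -0.18 in the second, in the fit without siNT pcDNA 2. Both comparisons use siNT pcDNA only for the estimate of the spread. Without siNT pcDNA 2 that estimate was smaller, and 10 higher genes and 0 lower were called in the first (4.19% and 5.29% of all genes) and 1 higher and 21 lower in the second (6.77% and 5.47%). Fits of the compared groups alone called 25, where 2750 of 16230 genes were called, and 39, where 2792 of 16229 were.

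Deposited splicing tables list skipped exons in many of these genes. The authors' deposited tables give a false discovery rate (FDR) and a difference in exon inclusion on a scale from 0 to 1 between the 2 sample sets of each table. Which set each sign refers to is not stated in the tables, so sizes are given without direction. For some tables the control set is not stated either. The siMbnl1 pcDNA, siFmr1 nMBNL1 and siMbnl1 cMBNL1 tables are therefore named by that group alone. At an FDR under 0.05 and a difference of at least 0.1, the tissue and first N2a tables held 1 such exon among these genes, in Atp5s in muscle. It was 0.68% of 147 skipped-exon events of these genes, where 1.36% of all events in that table met the limits. In the co-transfection tables, 3 exons met this in siFmr1 pcDNA (1.09% against 2.11% of all), 6 in siMbnl1 pcDNA (1.9% against 2.36%), 1 in siFmr1 nMBNL1 (0.287% against 1.45%) and 8 in siMbnl1 cMBNL1 (2.42% against 2.35%).

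Exons of 2 assembly factors of complex I are shown because each passed in 2 of these tables and is wholly coding with a length divisible by 3. Ndufaf6 supports early steps of complex I assembly. Its exon at chr4:11066651-11066707 (minus strand, 57 bases) had a difference of 0.155 (FDR = 3.88e-06) in the authors' deposited siMbnl1 pcDNA table and 0.197 (FDR = 2.99e-07) in the siMbnl1 cMBNL1 table. Ndufaf5 hydroxylates the core subunit Ndufs7. Its exon at chr2:140181574-140181621 (plus strand, 48 bases) had a difference of 0.380 (FDR = 0.00045) in the authors' deposited siFmr1 pcDNA table and 0.494 (FDR = 2.58e-05) in the siMbnl1 cMBNL1 table. Both sequences are the GRCm38 reference read 5′ to 3′, with exon ends as deposited and coding status from GENCODE M21.
Ndufaf6: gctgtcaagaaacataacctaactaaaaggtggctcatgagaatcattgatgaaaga
Ndufaf5: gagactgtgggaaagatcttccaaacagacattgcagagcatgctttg

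Other exons met the limits in the authors' deposited co-transfection tables. Atp5j, coupling factor 6 of ATP synthase, had a 55-base exon at chr16:84833820-84833874 that is not coding, with differences of 0.266 (siMbnl1 pcDNA) and 0.216 (siMbnl1 cMBNL1). Ndufb5 had a coding exon of 67 bases with 0.235 and 0.326 in the same tables. The largest difference was 0.646 for an exon of Ndufv2 in the siFmr1 nMBNL1 table (FDR = 2.81e-05). The remaining exons were in Ndufs1, Ndufs7, Ndufa9 and Atp5s, with another in Ndufv2 (97 bases, 0.129, siMbnl1 cMBNL1 table).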

How the data were processed

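RNA was measured by bulk sequencing in 56 mouse libraries. Per the submitters' processing notes, reads were handled with Trimmomatic 0.39, Bowtie2 2.3.5, STAR 2.6.1 and RSEM 1.3.1, with the builds GRCm38 and mm10. For tissues and the first N2a experiment the authors deposited counts and TPM per gene. For the co-transfection experiment they deposited normalized counts, treated here as a signal without known depth. The authors' deposited splicing tables give a p-value adjusted as an FDR and an inclusion difference, a score from -1 to 1. For muscle, 4 deposited value columns matched no sample label and were not used.

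Counts were tested with edgeR 4.0.16 (quasi-likelihood, TMM, filterByExpr, R 4.3.3) and normalized counts with limma 3.58.1 after adding 1 and taking log2, keeping genes whose mean reached 1 and fitting the 5 groups together. Calls required a p under 0.05 after Benjamini-Hochberg adjustment across every gene tested. DESeq2 1.42.0, another normalization, no filter, a replicate block and leaving out each library were alternatives. Scripts were tested on simulated data. The members and lists were chosen with earlier results of these data known. Genes were named by rule: the 4 highest and 4 lowest called per comparison with a mean of at least 50, all called where 6 or fewer, the 3 of lowest p where none, plus core subunits and paralogous isoforms. Atp5k in testis was added from earlier results, and other genes named with values were chosen after their values were seen. The values of 1 gene are not reported here.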

Additional observations from a re-analysis of the deposited data

Results flagged for a closer look

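Log2 fold changes of some genes had opposite signs in different tissues, with KO and WT libraries not overlapping in either tissue. The genes were picked by that separation, and how many of all genes show it is not given here. In muscle most oxidative phosphorylation genes separated with KO lower. In the brain regions the share that separated with KO higher did not exceed that of all genes. By edgeR, only Ndufb5 in muscle and Atp5k, Cox7c, Ndufb4 and Ndufv2 in testis were called. The difference between the tissues was not tested in any of these cases. Atp5k had a log2 fold change of 0.35 in cortex and -1.60 in testis. Cox6b1 had 0.11 in cortex and 0.15 in cerebellum, and -0.32 in muscle. Cox7c had 0.24 in hippocampus and 0.31 in testis, and -0.28 in muscle. Ndufb4 had 0.34 in testis and -0.36 in muscle, and Ndufb5 had 0.14 in testis and -0.54 in muscle. Ndufv2 had 0.19 in hippocampus and 0.21 in testis, and -0.36 in muscle.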

How the results depend on the processing

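Counts of called genes moved with the tool in several comparisons. Shares of all genes called are not given for most alternative fits here and above. The counts alone therefore do not single out these genes. DESeq2 gave 2 in cortex, 1 in liver, 42 in muscle and 4 in testis, and a fit of all 18 brain libraries gave 1 in cortex. Averaging the regions gave 0 in the pooled brain comparison. Co-transfection fits of the compared groups alone gave 21, 21, 35 and 15 against siNT pcDNA, 25 and 39 for the plasmids, and 44 between the knockdowns.

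With the replicate number as a block, muscle gave 0 and testis 5, and the co-transfection comparisons gave 47, 52, 64, 36, 0, 0 and 15. In no direct comparison of groups did the deviations of all 3 same-numbered pairs correlate above 0.1, so the numbers were not taken to pair the samples. These correlations were -0.183 to -0.060 in muscle, -0.059 to -0.003 in testis, and 0.015 to 0.130 for siMbnl1 pcDNA with siNT pcDNA. Hippocampus KO and cerebellum KO libraries, not compared directly, correlated by 0.108, 0.304 and 0.360. Both groups enter the pooled brain fit and an interaction test, which treated same-numbered libraries as independent.

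Leaving out 1 library gave 0 to 3 calls in cortex, 0 to 1 in liver, 0 to 11 in muscle, 2 to 20 in testis and 0 to 4 in the pooled brain. WT contrasts gave 14 to 28 for hippocampus against cortex, 35 to 44 and 28 to 44 for cerebellum against cortex and hippocampus, 82 to 85 for muscle against liver, and 82 to 84 and 85 to 86 for testis against liver and muscle. Co-transfection gave 36 to 77, 33 to 72, 48 to 81 and 22 to 59 against siNT pcDNA, 0 to 10 and 0 to 22 for the plasmids, and 8 to 34 between the knockdowns. Ndufa1 in N2a ranged from -0.86 without siNT 1 to 0.12 without siNT 2, against -0.45 with both. The cause of these changes was not tested.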
